A study of Homo sapiens with 12 samples.

Results

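The subject is the set of 55 genes for oxidative phosphorylation subunits, 13 encoded by mitochondrial DNA and 42 by nuclear DNA, out of 61541 genes in a table of RNA sequencing counts. The members were found by matching the table's Ensembl identifiers to a list of symbols that covers complexes I to V, and all 55 had enough counts to be tested, among 16768 genes tested in all. RNA came from 12 libraries in 4 groups of 3, all labelled as A549, a lung adenocarcinoma cell line, and all collected 14 days after transduction with a Cas9 guide. The lone control group carried the non-targeting guide gNTC1, and the lone TS-KO group carried a knockout of TYMS, the enzyme that makes thymidylate for DNA synthesis. The other two groups were the same genotypes from co-culture. The series names parental A549 as partner of the TS-KO cells, while the labels do not name the partner of the control cells or say how partners were separated. All groups were labelled as untreated, and the labels do not say whether replicates came from separate cultures or whether TS-KO was a pool or a clone, so p-values measure the spread between these libraries only.

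Levels below are counts per 1000000 (CPM), scaled by the TMM method. Library totals ran from 14921371 to 35723762 counts. TYMS was at 95.3 ± 5.26 CPM (SD, n = 3) in lone control, 93.4 ± 2.67 in co-cultured control, 20.2 to 21.3 in the lone TS-KO libraries and 10.7 to 11.4 in the co-cultured ones. A549 is known to lack CDKN2A and its neighbour MTAP, yet the 6 control libraries held 54.6 to 116 CPM of CDKN2A and 43.7 to 79.4 of MTAP, against at most 0.119 and 0.647 in the 6 TS-KO libraries. The control libraries thus go against their line label, and in every TS-KO against control comparison below the knockout and a difference in the cells used cannot be told apart. A list of 5 epithelial markers and 2 genes known for a mesenchymal state was read as a whole: in lone TS-KO against lone control 4 were called lower (EPCAM at -7.41 on the log2 scale, KRT19 at -2.77, CDH1 at -1.67 and KRT8 at -0.94) and 2 higher (CDH2 at 2.96 and VIM at 2.35), and in co-culture 5 were lower and the same 2 higher. CDH2 (-0.97) and VIM (-0.40) were lower in co-cultured than in lone TS-KO. EPCAM was at 94.3 to 119 CPM in control and 0.149 to 0.912 in TS-KO libraries, and the summed level of the 7 was 9531 to 15460 CPM in control and 4876 to 8320 in TS-KO libraries. Of 9 markers of fibroblasts, blood and endothelium 5 had enough counts to be tested. CD68, a macrophage marker, was higher in TS-KO (2.65 alone, 3.92 in co-culture) and higher in co-cultured than in lone TS-KO (1.73). It was at most 0.218 CPM in the 6 control libraries and 0.851 to 3.57 in the TS-KO ones. THY1 was higher alone (1.41) and in co-culture (1.83), PECAM1 lower in co-culture (-2.28), and COL1A1 lower in co-cultured than in lone TS-KO (-0.64). The 9 summed to 14.3 to 24.7 CPM in control and 24.7 to 35.3 in TS-KO libraries, with CD3E at 0 in all 12, and their part in the results below was not tested.

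Oxidative phosphorylation is the last stage of respiration. Complexes I and II pass electrons from NADH and succinate to ubiquinone, complex III passes them to cytochrome c, complex IV passes them to oxygen, and complex V uses the resulting proton gradient to make ATP. Complexes I, III, IV and V are built from products of both genomes, whereas complex II is wholly nuclear encoded. Mitochondrial genes are transcribed as long joint transcripts that are cut into separate messengers, while each nuclear subunit has its own promoter.

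On mitochondrial DNA 3 pairs of members share bases, MT-ATP6 and MT-CO3 only 1. For the other 2 pairs the last 60 bases of each upstream frame are shown with the shared bases in capitals, on the GRCh38 sequence of GENCODE 29 transcripts: 7 bases, chrM:10760-10766, are shared by MT-ND4L and MT-ND4, and 46 bases, chrM:8527-8572, by MT-ATP8 and MT-ATP6.
MT-ND4L: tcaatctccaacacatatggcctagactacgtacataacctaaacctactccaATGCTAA
MT-ATP8: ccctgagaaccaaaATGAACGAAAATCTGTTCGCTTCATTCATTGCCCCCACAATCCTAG

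Promoter windows of 250 bases before the RefSeq start (GRCh38.p14) were found for 32 of the 42 nuclear members. Exact motifs of 3 regulators known for respiratory genes were searched on both strands. The members' windows had a median GC of 62.6%, against 58.0% for all windows, and the shares below are not adjusted for it. Only the members were reduced to 1 window per gene. The NRF1 motif was in 7 of the 32 windows, or 21.9%, against 5.07% of 35116 windows of the same length. For GABPA, the letters CCGGAAG were in 8 of 32, or 25.0%, against 8.52%, and the YY1 motif was in 0 of 32 against 0.248%. This window was chosen after matches had been seen: over 300 bases, with the first 50 of the transcript, the NRF1 motif was in 25.0% of members against 5.78%, the GABPA letters in 28.1% against 10.3%, and the YY1 motif in 3 of 32, or 9.38%, against 0.849%. Of the 14 matched members that were lower in TS-KO than in control, both alone, 2 of the 250-base windows held the NRF1 motif and 3 the GABPA letters, and of the 4 that were higher, 1 and 0 did. Of the 14 that were not called, 4 and 5 did. Some windows lie wholly within annotated exons, such as those of NDUFS7 and UQCRFS1, with 250 exonic bases each. Upstream stretches that end before the first annotated exon base were kept for 5 windows, and those of 3 complex IV genes are shown, chosen after the matches were seen. The others, each of a member that was lower and without a motif match, are not shown. COX8A (chr11:63974370-63974606, plus strand) was lower and COX7C (chr5:86617691-86617903, plus strand) was higher. COX5B (chr2:97645812-97646039, plus strand), which did not pass the test, holds a GABPA match in capitals. The COX8A match lies across the end of the stretch shown.
COX8A: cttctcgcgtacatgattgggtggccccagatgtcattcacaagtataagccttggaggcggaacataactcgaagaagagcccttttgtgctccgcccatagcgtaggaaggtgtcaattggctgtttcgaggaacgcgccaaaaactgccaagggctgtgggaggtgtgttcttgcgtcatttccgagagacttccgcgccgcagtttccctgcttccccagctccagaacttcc
COX7C: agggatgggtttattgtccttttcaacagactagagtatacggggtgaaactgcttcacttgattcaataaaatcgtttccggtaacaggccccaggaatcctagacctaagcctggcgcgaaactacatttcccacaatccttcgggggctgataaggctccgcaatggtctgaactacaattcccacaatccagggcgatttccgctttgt
COX5B: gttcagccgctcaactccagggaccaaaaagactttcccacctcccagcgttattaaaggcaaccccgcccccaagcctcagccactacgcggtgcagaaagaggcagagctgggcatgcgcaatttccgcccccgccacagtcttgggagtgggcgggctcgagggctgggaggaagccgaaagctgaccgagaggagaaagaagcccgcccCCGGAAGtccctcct

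The summed counts of the nuclear members were lower in TS-KO than in control, and those of the mitochondrial members were not. Sums follow the most abundant members, so they do not show a fall in each member. For ATP5F1B, the most abundant in lone control, mean CPM in lone control and lone TS-KO was 1690 and 1151. Among the next, it was 1291 and 405 for CYC1, 870 and 383 for COX4I1, 670 and 232 for UQCRC1, and 500 and 326 for ATP5F1A. The 42 nuclear members took 0.919%, 0.978% and 1.02% of the counts in the lone control libraries and 1.002%, 0.946% and 0.976% in the co-cultured ones. They took 0.615%, 0.714% and 0.720% in the lone TS-KO libraries and 0.735%, 0.772% and 0.676% in the co-cultured ones, so that all 6 TS-KO libraries were below all 6 control libraries. The 13 mitochondrial members took 2.89%, 1.90% and 2.50% in lone control, 1.59%, 2.78% and 2.34% in co-cultured control, 3.30%, 3.28% and 2.73% in lone TS-KO, and 2.30%, 1.94% and 2.97% in co-cultured TS-KO. These 4 groups overlapped, except that 2 lone TS-KO libraries were above every other library. The ratio of mitochondrial to nuclear counts was 2.52 ± 0.600 in lone control, 2.30 ± 0.681 in co-cultured control, 4.58 ± 0.783 in lone TS-KO and 3.35 ± 0.961 in co-cultured TS-KO (SD, n = 3 each). Only the lone TS-KO libraries, at 3.79 to 5.36, were all above both control groups, which reached 3.14. In bulk samples, fewer cells of a type and less RNA per cell cannot be told apart.

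**Figure D1:**
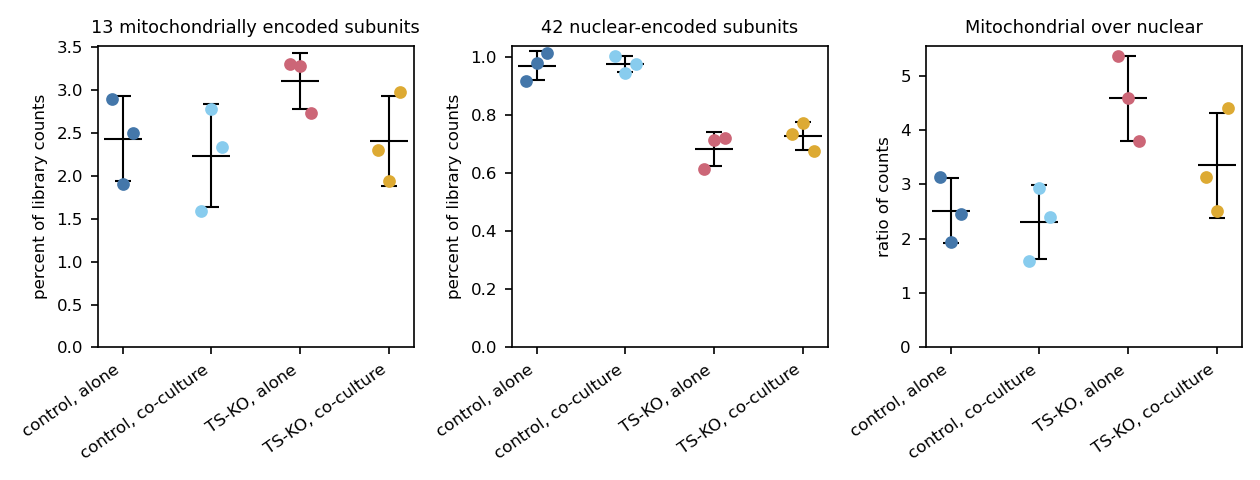
Percent of each library's counts from the 13 mitochondrial members (left) and the 42 nuclear members (middle), and the ratio of the first to the second (right), by group. Points are libraries and bars are mean ± SD (n = 3); the 6 TS-KO libraries, at 0.615% to 0.772% nuclear, lie below the 6 control libraries, at 0.919% to 1.02%.

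Among the mitochondrial members, the highest and lowest levels were held by the same genes in all 4 groups. Per kilobase of gene, MT-CO3, MT-CO1, MT-CO2 and MT-ATP6 were the highest 4 in each group, and MT-ND2, MT-ND5 and MT-ND6 the lowest 3. MT-CO3, a core subunit of complex IV, stood at 5050 ± 745 CPM per kilobase in lone control, and MT-CO1, the subunit that reduces oxygen, at 4024 ± 955, which does not separate them beyond their spread. MT-ND6, whose gene lies on the other strand from the remaining 12, was lowest at 796 ± 151, beside MT-ND5 at 832 ± 198. Between these, MT-ND3 ranked 5 in both control groups, 9 in lone TS-KO and 7 in co-cultured TS-KO, MT-ND4L ranked 7 in lone TS-KO and 10 in the other groups, and MT-CYB ranked 10 in lone TS-KO and 8 in the others. MT-ND1, MT-ND4 and MT-ATP8 moved by 1 or 2 ranks.

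In lone TS-KO against lone control, MT-ND3 fell, MT-ND4L rose, and the other 11 mitochondrial members did not pass the test; 56.6% of all genes tested were called in this comparison. Called here means that edgeR's quasi-likelihood test gave an adjusted p under 0.05 (Benjamini-Hochberg, over all genes tested). MT-ND3, a small membrane subunit of complex I (chrM:10059-10404), was at 801, 781 and 884 CPM in the control libraries and 389, 555 and 557 in the TS-KO libraries. The groups did not overlap, and the log2 fold change was -0.72 ± 0.16 (SE), with an adjusted p of 0.0023. MT-ND4L, another membrane subunit of complex I, was at 386, 282 and 373 CPM in control and 559, 659 and 438 in TS-KO, again with no overlap, for a log2 fold change of 0.67 ± 0.23 and an adjusted p of 0.0223. MT-ND4, read from the same messenger, was at 3091, 2215 and 3140 CPM in control and 4098, 4298 and 3637 in TS-KO. These groups did not overlap either, but the log2 fold change of 0.51 ± 0.24 missed the threshold (adjusted p = 0.0903).

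The remaining mitochondrial members covered a narrower range. MT-ND5 (log2 fold change 0.58, adjusted p = 0.0883), MT-ND2 (0.38, 0.152), MT-ND1 (0.30, 0.336) and MT-ND6 (0.27, 0.394), all of complex I, had positive values that did not pass. MT-CO1 was at 0.29, MT-CO2 at -0.02 and MT-CO3 at -0.05 for complex IV, MT-ATP6 at 0.06 and MT-ATP8 at 0.07 for complex V, and MT-CYB, the only complex III member among them, at -0.25, with adjusted p from 0.315 to 0.931. The 13 had a median of 0.27, against 0.09 over all genes tested. With offsets for GC content the median was -0.23, MT-ND4L was at 0.18 and no longer called (adjusted p = 0.434), MT-CYB was at -0.60 and called lower (0.0129), and MT-ND3 was at -1.30 (0.00268). Without lone control replicate 2, or lone TS-KO replicate 1 or 2, MT-ND3 was the only mitochondrial member called, so the count fell from 2 to 1.

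**Figure D2:**
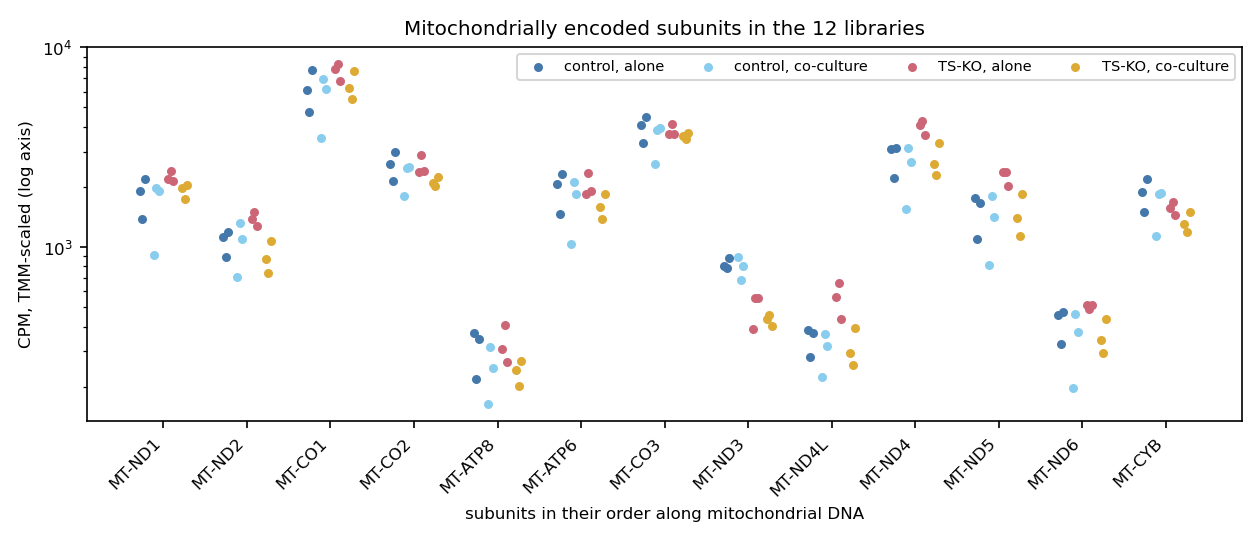
CPM (log axis) of the 13 mitochondrially encoded subunits, in their order along mitochondrial DNA, in each of the 12 libraries, coloured by group. MT-ND3 is the member whose TS-KO libraries, at 389 to 557 CPM, lie below all control libraries, at 688 to 887.

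Among nuclear members most calls were lower. In lone TS-KO against lone control, 24 of 42, or 57.1%, were called, close to the 56.6% of all genes tested. Of these 20 were lower and 4 higher, or 47.6% and 9.52% of the 42, against 28.6% lower and 28.0% higher among all genes. Their median log2 fold change was -0.41, against 0.09 over all genes, and it was -0.25 without lone TS-KO replicate 1. Values of the 24 ran from -1.79 to -0.42 among the lower and 0.66 to 1.02 among the higher. The groups did not overlap for any of the 24, nor for 4 of the 18 not called. The calls came from the same libraries, so this is no separate support for them. The share over all genes was not computed, so the count is not a result about these members. In 17 of the 24 (15 lower, 2 higher) the call held in all 14 alternatives computed for this comparison. With GC offsets 24 were called again, 20 of them as before; NDUFS8 (-0.20), NDUFV1 (-0.12), COX8A and COX7C were no longer called, and SDHD, UQCRQ (-0.45), COX6C (-0.69) and ATP5MC3 were called lower. The members of each complex did not move as a unit, as the plot of nuclear fold changes by complex shows.

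Complex I, which oxidises NADH, had 9 members lower and 1 higher of 16. NDUFS7, an iron-sulfur subunit of the arm that carries electrons toward ubiquinone (chr19:1383527-1395589), was at 124, 174 and 220 CPM in lone control and 41.7, 62.9 and 68.5 in lone TS-KO. It had the lowest value of the complex, with no overlap, at -1.58 ± 0.29 on the log2 scale (adjusted p = 0.000535), and was at -0.85 with GC offsets (0.000197). NDUFB9, an accessory subunit of the membrane arm, went from 330, 446 and 485 CPM to 115, 152 and 160, a fall of -1.56 ± 0.19 (adjusted p = 1.57e-05). NDUFB5, also of the membrane arm, was at 25.6, 27.1 and 24.6 CPM in control and 17.5, 18.4 and 21.8 in TS-KO, a difference of -0.42 ± 0.15 (adjusted p = 0.0249) that was -1.01 with GC offsets (0.000838). NDUFB3, a further membrane-arm subunit (chr2:201071433-201085750), was the only complex I member to rise: it was at 25.7, 16.4 and 22.0 CPM in control and 37.3, 43.1 and 45.6 in TS-KO, at 0.97 ± 0.17 (adjusted p = 0.000307), or 0.55 with GC offsets (0.0283). NDUFS1, the largest iron-sulfur subunit, was at 0.38 and NDUFV2, an iron-sulfur subunit of the NADH-binding part, at 0.02, and neither passed (adjusted p = 0.0894 and 0.951). NDUFV2 was measured at 1.97 to 4.35 CPM only, and a named copy held counts equal to 24.0% of its own.

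Complex II, which oxidises succinate in both the citric acid cycle and the respiratory chain, had 2 members lower and 0 higher of 4. SDHB, its iron-sulfur subunit, was at 95.2, 105 and 108 CPM in lone control and 55.9, 68.3 and 68.7 in lone TS-KO, with no overlap and a log2 fold change of -0.68 ± 0.13 (adjusted p = 0.00087). SDHA, the flavin-bearing catalytic subunit, was at -0.64 ± 0.16 (adjusted p = 0.00514), with named copies holding 14.3% of its counts. SDHD, a membrane anchor, had the highest value of the complex and overlapping groups at 0.11 ± 0.25 (adjusted p = 0.724); with GC offsets it was at -0.42 and was called lower (adjusted p = 0.00441).

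Complex III, which hands electrons to cytochrome c, had members that moved in opposite directions, 3 lower and 2 higher of 6. CYC1, its cytochrome c1 subunit (chr8:144095027-144097525), was at 877, 1275 and 1720 CPM in lone control and 295, 410 and 509 in lone TS-KO, a fall of -1.67 ± 0.29 on the log2 scale (adjusted p = 0.000319). UQCRFS1, the Rieske iron-sulfur subunit that works next to it (chr19:29205321-29213541), was at 111, 121 and 114 CPM in control and 213, 247 and 244 in TS-KO. Its log2 fold change was 1.02 ± 0.12 (adjusted p = 1.72e-05). The 2 core proteins parted as well: UQCRC1 went from 489, 668 and 852 CPM to 177, 239 and 280, and UQCRC2 from 76.2, 78.0 and 60.8 to 131, 120 and 88.1. UQCRB, a small subunit near the ubiquinone site, was at 152, 144 and 183 CPM in control and 57.4, 77.0 and 104 in TS-KO, at -1.01 ± 0.19 (adjusted p = 0.000632). None of these 5 called members had overlapping groups, as was so for every nuclear member called in this comparison. With GC offsets all 5 were called in the same directions, with CYC1 at -0.70 (adjusted p = 0.000411), UQCRFS1 at 0.63 (0.0056), UQCRC1 at -0.89 (1.83e-05), UQCRC2 at 0.28 (0.0413) and UQCRB at -1.60 (0.00149).

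Complex IV, the terminal oxidase, had 3 members lower and 1 higher of 8. COX4I1, the regulatory subunit that binds ATP, fell from 668, 881 and 1059 CPM in lone control to 298, 395 and 456 in lone TS-KO, at -1.18 ± 0.21 (adjusted p = 0.00043). COX7C, a small membrane subunit, was at 120, 125 and 113 CPM in control and 154, 222 and 206 in TS-KO, at 0.70 ± 0.17 (adjusted p = 0.00384), and was not called with GC offsets (0.11, adjusted p = 0.788). COX8A, another small membrane subunit, was at -0.66 (adjusted p = 0.0183) and likewise not called with the offsets (-0.11, adjusted p = 0.42). NDUFA4, now counted with complex IV, and COX5A, a matrix-side subunit, were at 0.21 and 0.01 and did not pass (adjusted p = 0.252 and 0.955). Complex V, the ATP synthase, had 3 lower and 0 higher of 8. ATP5F1D, the delta subunit of the rotating stalk (chr19:1241746-1244826), had the lowest value of all 55 members: it was at 283, 395 and 469 CPM in control and 84.7, 115 and 133 in TS-KO, a fall of -1.79 ± 0.29 (adjusted p = 0.000229). With GC offsets it was at -0.86 (adjusted p = 4.17e-05), and NDUFB9, at -1.93, was then the lowest. ATP5PB, of the stationary stalk, and ATP5MC3, which encodes the ring subunit c, were at 0.50 and -0.31 and did not pass (adjusted p = 0.0837 and 0.171), though ATP5MC3 was called at -0.89 with GC offsets (0.0453). The 21 nuclear members that the naming rule does not single out held 11 of the calls, all lower, from -1.53 to -0.55, while the remaining 10 ran from -0.42 to 0.36.

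**Figure D3:**
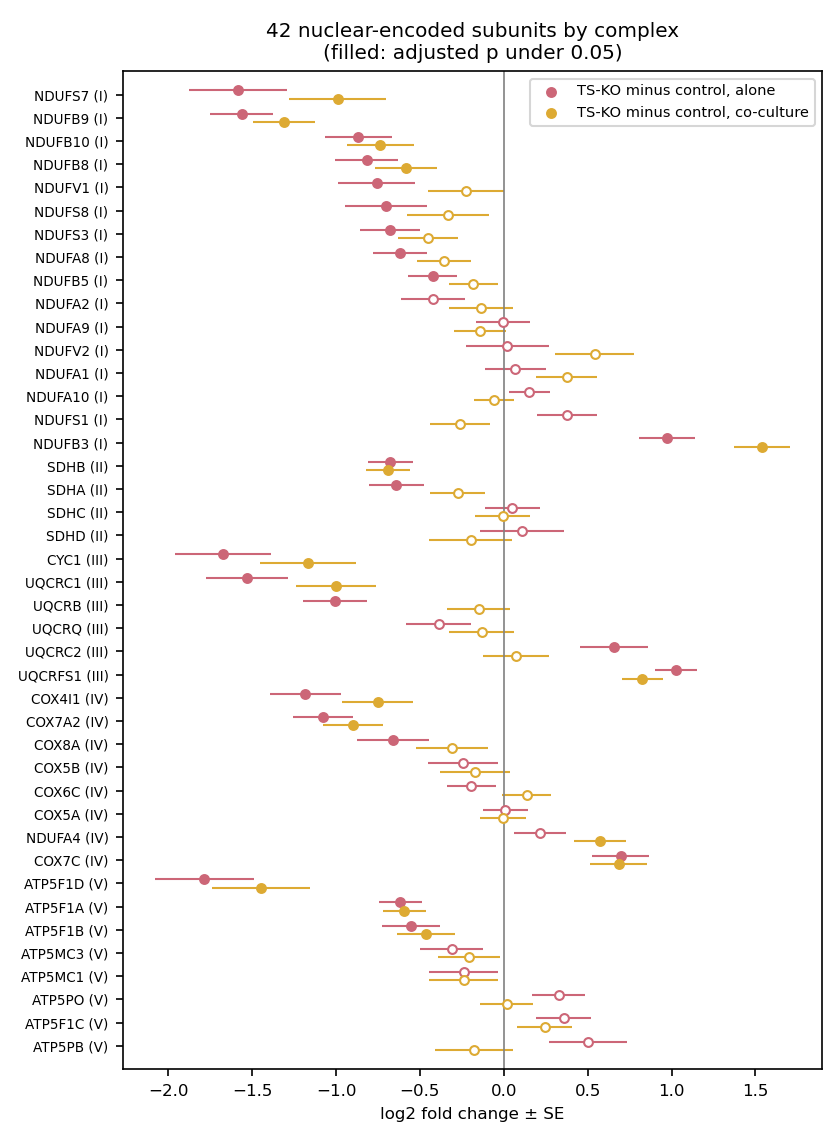
Log2 fold change ± SE of the 42 nuclear members by complex (roman numeral), for TS-KO minus control alone and in co-culture; filled points have an adjusted p under 0.05. ATP5F1D, at -1.79 alone and -1.45 in co-culture, marks the low end, and NDUFB3, at 0.97 and 1.54, and UQCRFS1, at 1.02 and 0.83, are the highest.

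The comparison of TS-KO with control was repeated in co-culture, in libraries that share none with the comparison above. Of the nuclear members 16 of 42 were called, 12 lower and 4 higher, against 49.4% of all genes tested (25.3% lower and 24.1% higher). Their median was -0.20, against -0.02 over all genes, and it was -0.35 without co-cultured TS-KO replicate 2. Of the 16, 15 had been called in the same direction in the lone comparison, which is 93.8% of the co-culture calls and 62.5% of the 24 lone calls: 12 were lower and 3 higher in both. Over all genes tested, such shared calls were 78.0% of the co-culture calls and 68.0% of the lone ones. NDUFB3 had the smallest p, with 20.8, 17.6 and 19.6 CPM in co-cultured control and 61.2, 55.0 and 52.3 in co-cultured TS-KO, at 1.54 ± 0.17 on the log2 scale (adjusted p = 7.92e-06). NDUFB9 came next, with 498, 409 and 435 CPM against 183, 205 and 153, at -1.31 ± 0.19 (adjusted p = 7.12e-05). NDUFA4 was called here, at 0.57 ± 0.15 (adjusted p = 0.00795), and not in the lone comparison; with GC offsets it was at 0.71 (0.0551). The other 15 were called with the offsets too, and 5 more were, 1 higher and 4 lower. That fit called 62.1% of all genes tested, 31.1% higher and 31.1% lower.

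UQCRB, lower in the lone comparison, was at 145, 125 and 132 CPM in co-cultured control and 132, 117 and 113 in co-cultured TS-KO; the groups overlapped, at -0.15 ± 0.19 (adjusted p = 0.532). UQCRC2, higher in the lone comparison, was at 0.07 ± 0.20 in co-culture (adjusted p = 0.786). Of the mitochondrial members only MT-ND3 was called. It was at 887, 688 and 808 CPM in co-cultured control and 437, 455 and 400 in co-cultured TS-KO, with no overlap, at -0.88 ± 0.16 (adjusted p = 0.000614), and its call held in all 14 alternatives here as in the lone comparison. The other 12 ran from -0.28 to 0.26, with a median over all 13 of 0.05. Co-cultured control replicate 1 stood apart for these genes: MT-CO1 was at 3518 CPM there and at 6931 and 6185 in replicates 2 and 3. Without that library MT-ND3 was still the only mitochondrial member called, and the median of the 13 was -0.23.

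**Figure D4:**
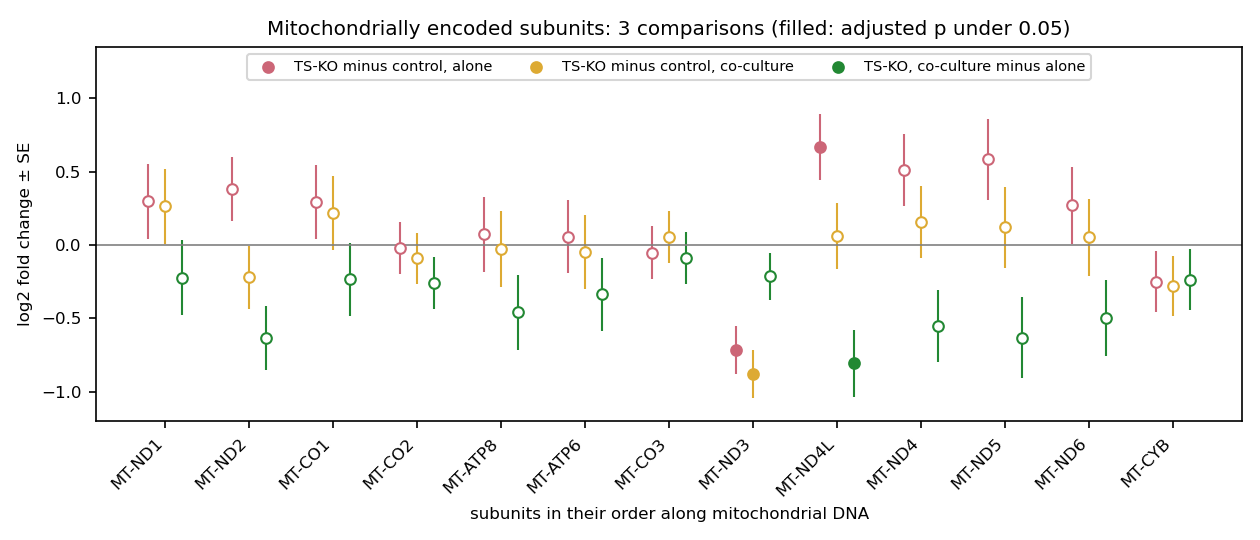
Log2 fold change ± SE of the 13 mitochondrial members in TS-KO minus control alone, TS-KO minus control in co-culture, and co-cultured minus lone TS-KO; filled points have an adjusted p under 0.05. MT-ND3 is called in both TS-KO against control comparisons, at -0.72 and -0.88, and all 13 members lie below 0 in co-cultured minus lone TS-KO.

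Within TS-KO, co-cultured libraries were set against lone ones, the comparison that follows the return of proliferation described for these cells. Only 2 of 55 members were called, 1 higher and 1 lower, against 11.4% of all genes tested (5.97% higher and 5.4% lower). MT-ND4L was lower, with 294, 257 and 395 CPM in co-culture and 559, 659 and 438 alone, at -0.81 ± 0.23 (adjusted p = 0.0391). NDUFB5 was higher, with 26.6, 24.8 and 32.0 CPM against 17.5, 18.4 and 21.8, at 0.53 ± 0.15 (adjusted p = 0.0357). Neither pair of groups overlapped. Both calls were lost without lone TS-KO replicate 1 or 2 or without co-cultured TS-KO replicate 1 or 2, and without co-cultured replicate 3 the counts were 4 mitochondrial members, all lower, and 6 nuclear members, 3 lower and 3 higher. Without lone replicate 3 there were 2 nuclear calls. The share over all genes was not computed for these fits without a library, so their counts cannot be set against that of all genes.

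All 13 mitochondrial members had negative values in this comparison, from -0.81 to -0.09, with a median of -0.34 against 0.01 over all genes, but 12 of the 13 did not pass. MT-ND2 was at -0.64 (adjusted p = 0.0757), MT-ND5 at -0.63 (0.147), MT-ND4 at -0.55 (0.151), MT-ND6 at -0.50 (0.217), MT-ATP8 at -0.46 (0.246) and MT-ATP6 at -0.34 (0.386). MT-CO2, MT-CYB, MT-CO1, MT-ND1, MT-ND3 and MT-CO3 ran from -0.26 to -0.09. Since joint transcripts and shared libraries tie these genes together, the common sign is not 13 separate observations. Of the nuclear members 31 of 42 had positive values, with a median of 0.17. By complex the extremes were NDUFV2 at 0.64 and NDUFS1 at -0.41, SDHA at 0.31 and SDHD at 0.00, UQCRB at 0.60 and UQCRC2 at -0.44, NDUFA4 at 0.48 and COX5A at -0.04, and ATP5MC3 at 0.16 and ATP5PB at -0.48, with adjusted p from 0.0567 to 0.998. With GC offsets 8 nuclear members were called, 7 higher and 1 lower, and 0 mitochondrial ones, against 28.4% of all genes (13.7% higher and 14.7% lower). The 7 were NDUFB5 (1.08), NDUFV2 (1.16), NDUFA4 (1.09), UQCRB (1.23), NDUFB3 (0.73), SDHD (0.45) and COX6C (0.80), and ATP5F1D was lower (-0.41).

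Co-culture of control cells was not accompanied by a call in any gene: 0.0% of 16768 genes passed in edgeR's quasi-likelihood test, and 0 in DESeq2. At an unadjusted p under 0.05 there were 540 genes by edgeR and 504 by DESeq2, and 0 of the 55 members by either. The smallest p among nuclear members belonged to NDUFB5 and to ATP5PO, a stalk subunit of complex V, each at 0.29 on the log2 scale. NDUFB5 was at 25.6, 27.1 and 24.6 CPM alone and 33.3, 31.2 and 30.1 in co-culture, without overlap. All 13 mitochondrial members had negative values here too, from -0.36 to -0.04, with a median of -0.20 that was 0.00 without co-cultured control replicate 1. The median of the nuclear members was 0.03.

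The interaction term asks whether co-culture shifted TS-KO differently from control. It called 1.8% of all genes (1.51% higher and 0.286% lower) and 0 of the 55 members in edgeR. At an unadjusted p under 0.05 in edgeR there were 3 members, beside 3135 of all 16768 genes tested. DESeq2 called 1 of the 55, against 5.23% of all genes. UQCRB had the smallest p, at 0.86 ± 0.27 (adjusted p = 0.138): its level went from 79.6 ± 23.6 to 121 ± 9.66 CPM in TS-KO and from 160 ± 20.5 to 134 ± 10.2 in control (SD, n = 3 each). NDUFS1 followed at -0.64 ± 0.25 (adjusted p = 0.219). The medians were -0.10 for mitochondrial and 0.23 for nuclear members. With GC offsets, without the low-count filter, or without lone TS-KO replicate 3, 1 nuclear member was called, and without co-cultured TS-KO replicate 3 there were 4. The fit with GC offsets called 8.41% of all genes. For the fits without the filter or without a library, the share over all genes was not computed.

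GC content moved with several of these values. Within each group, the deviations of libraries from their group mean had a Spearman correlation with transcript GC content, across 16505 genes, between -0.757 and 0.736, so replicates differed in GC trend. The 42 nuclear members spanned 38.3% to 64.5% GC, and their log2 fold changes in lone TS-KO against control had a Spearman correlation of -0.577 with GC across genes, against -0.386 over all genes tested. Of the 21 members above the median GC of 47.6%, 15 were lower and 0 higher; of the 21 at or below it, 5 were lower and 4 higher. After GC offsets the correlation was 0.02, with 13 lower and 0 higher above the median and 8 lower and 3 higher at or below it. In all, 21 members were lower and 3 higher with the offsets, against 30.5% lower and 32.0% higher among all genes in that fit. In other comparisons a relation among the nuclear members remained with the offsets, or was stronger with them than without. In co-cultured against lone TS-KO the nuclear correlation was -0.143 without offsets and -0.754 with them, against 0.435 and 0.009 over all genes. The 7 members called higher with the offsets there were all at or below the median GC, and the 1 called lower was above it. In co-cultured TS-KO against control the nuclear correlation was -0.549 without offsets and -0.484 with them. For co-culture of control cells it was -0.692 and -0.426, and for the interaction 0.359 and -0.617. Genes within a sample are not independent replicates, and no p is attached to these correlations.

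**Figure D5:**
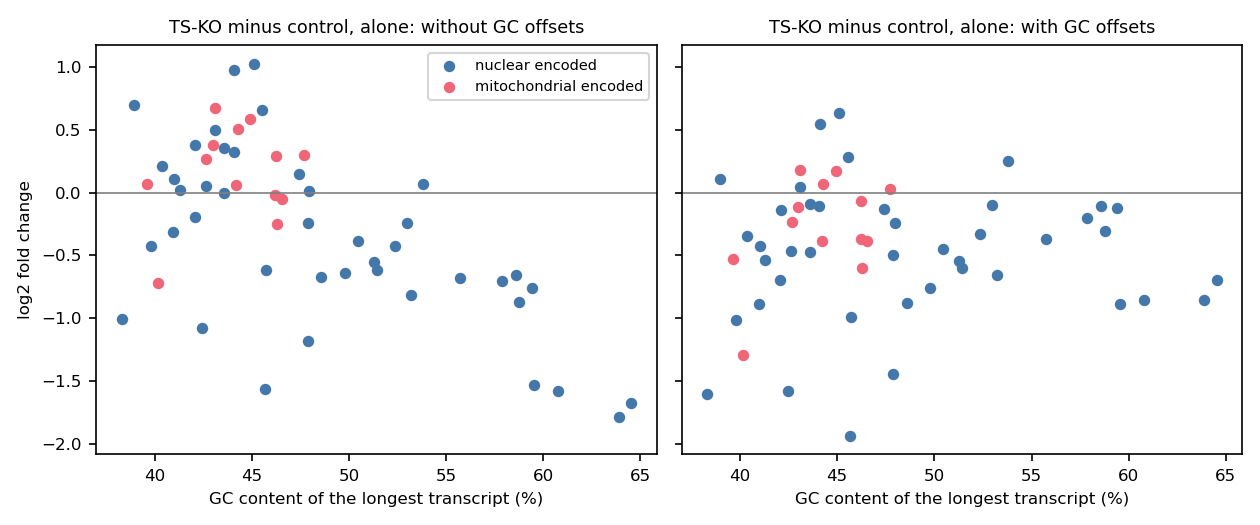
Log2 fold change in lone TS-KO minus lone control against the GC content of the longest transcript, for the 42 nuclear and 13 mitochondrial members, without (left) and with (right) GC offsets. The downward slope on the left (Spearman -0.577 for nuclear members) is gone on the right (0.02), and the mitochondrial median moves from 0.27 to -0.23.

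Other genes of respiration were read from lists chosen with earlier results known, in lone TS-KO against lone control, where 28.6% of all genes tested were lower and 28.0% higher. Of 37 nuclear subunits outside the set, 13 were lower and 1 higher, with a median of -0.25; NDUFA11, of complex I, was lowest at -1.40 and ATP5F1E, the epsilon subunit of complex V, was the one that rose, at 1.16. Of 35 mitochondrial ribosomal proteins, which translate the 13 mitochondrial messengers, 17 were lower and 3 higher, with a median of -0.35, from MRPL4 at -1.63 to MRPL15 at 1.44. Assembly factors were split, with 11 higher and 10 lower of 46, from NDUFAF7 at 1.49 to ECSIT at -1.76, both of complex I assembly. In the machinery that expresses mitochondrial DNA 5 of 30 were higher and 6 lower; POLRMT, the mitochondrial RNA polymerase, was at 304, 380 and 430 CPM in control and 117, 146 and 173 in TS-KO, a fall of -1.36 ± 0.24 (adjusted p = 0.000353), and PNPT1, an RNA-degrading enzyme, was at 1.64. Citric acid cycle enzymes counted 6 lower and 3 higher of 18, with SUCLG2 the highest called at 0.78, and regulators of mitochondrial biogenesis 4 lower and 3 higher of 13, from ESRRA at -0.90 to NRIP1 at 2.17. Of the 2 tissue-restricted subunit isoforms tested, COX6B2 was lower at -2.21, and of 9 nuclear copies of mitochondrial genes MTND5P11 and MTND1P23 were higher, at 2.17 and 1.48.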

How the data were processed

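RNA was sequenced from 12 libraries. The authors deposited 1 table of raw counts, whole numbers of reads per Ensembl gene for 61541 genes. Per the submitters' processing notes the tools named include STAR 2.7.9a, featureCounts, FastQC, R 4.2.1 and DESeq2 1.36.0, with GRCh38; annotation, strand and treatment of multi-mapping reads are not given in the sources used here, so reads shared with nuclear copies, antisense or overlapping genes cannot be told apart (24 nuclear members overlap an exon of another gene). Per the labels' protocols, libraries came from 500 ng of total RNA with the NEBNext Ultra RNA kit.

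Counts were tested in R 4.3.3 with edgeR 4.0.16: filterByExpr on the 4 groups (16768 genes), TMM scaling, 1 quasi-likelihood fit (robust) of 4 group means over all 12 libraries, and Benjamini-Hochberg adjustment within each of 5 comparisons, with calls at an adjusted p under 0.05. SE is the log2 fold change divided by the square root of F. The biological coefficient of variation was 22.1%; 1 CPM is 14.9 counts in the shallowest library, and members had 32 to 203751 counts in a library. Positions and GC content came from GENCODE 29 (GRCh38), matched by Ensembl identifier. Alternatives were DESeq2 1.42.0 size factors and Wald test, library size only, scaling without mitochondrial genes, no low-count filter, only the groups compared, a replicate block, GC offsets (loess, span 0.3) and leaving out each library. The procedure was tested on simulated counts, where changes of the smaller size simulated were often missed, so a member that was not called cannot be taken as unchanged.

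The members and lists were chosen with earlier results of these data known. All mitochondrial members are named; of the nuclear ones, the highest and lowest fold change per complex in lone TS-KO against control and in co-cultured against lone TS-KO, and the 2 with the smallest p in each other comparison. UQCRC1, COX8A, COX5B, ATP5F1B and ATP5F1A are described beyond that rule, chosen after their values were seen. So are NDUFS8, NDUFV1, UQCRQ and COX6C, given because their calls changed with GC offsets. Of each list of respiration genes with more than 2 calls, the highest and lowest called gene is named, except 1 gene that is not reported here; of the marker lists every called gene is named for lone TS-KO against control. Chi-square statistics of replicate pairs were 8.77 to 130 per gene, so no library was counted as a repeat.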

Additional observations from a re-analysis of the deposited data

How the results depend on the processing

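Leaving out each library gave 1 to 2 mitochondrial calls in lone TS-KO against control, where only the groups compared gave 4, and GC offsets put the median at -0.23. The nuclear median there was -0.24 by library size only and -0.54 to -0.25 without single libraries. In co-cultured against lone TS-KO, mitochondrial calls were 0 by library size only, GC offsets and only the groups compared, 2 by DESeq2, and 0 to 4 without single libraries. Nuclear calls were 0 by library size only and only the groups compared, 8 with GC offsets and 4 by DESeq2. They were 3 without the low-count filter (median 0.30) and 0 to 6 without single libraries (median 0.066 to 0.33). Of all genes tested in co-cultured against lone TS-KO, DESeq2 called 19.96%, library size only 8.46% and GC offsets 28.4%. For the other settings this share was not computed. A change in these counts alone is therefore no result about the members. In co-cultured TS-KO against control the nuclear median was -0.35 to -0.14 without single libraries. For the interaction the nuclear median was 0.088 by library size only and 0.076 to 0.32 without single libraries, with 1 nuclear call each without the filter, with GC offsets and by DESeq2, and 0 to 4 without single libraries. With a replicate block, co-cultured against lone TS-KO had 0 mitochondrial and 0 nuclear calls; same-numbered libraries correlated from -0.603 to 0.491 and 1 of 12 correlated best with its own number, so the numbers do not pair the libraries. SDHD in lone TS-KO against control turned to -0.42 with GC offsets. The causes of these changes were not tested. Of 4125 single-member values under an alternative, 4014 kept their side of the threshold, 56 passed it newly and 54 no longer passed. These span 5 comparisons, of which the interaction and co-culture of control cells had 0 members called. A value not called at first cannot be lost, so 4014 is no measure of how firmly calls held. In TS-KO against control, 17 of 24 nuclear and 1 of 2 mitochondrial calls held in all 14 alternatives alone, and 13 of 16 and 1 of 1 in co-culture. Neither call in co-cultured against lone TS-KO did. SDHD was the 1 value that passed with its direction turned. Values that did not pass could change sign and still count among the 4014. MT-CO1 in lone TS-KO against control did so with GC offsets, to -0.06. Library size only moved the median of all genes from 0.09 to 0.24 in lone TS-KO against control.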

Other observations

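The 2 mitochondrial ribosomal RNAs, which are no subunits, were read beside the messengers. MT-RNR1, the small-subunit ribosomal RNA, was at 1518, 1498 and 1601 CPM in lone control, 1637, 1649 and 1441 in co-cultured control, 925, 1109.6 and 934 in lone TS-KO and 507, 440 and 665 in co-cultured TS-KO. It was lower in lone TS-KO than in lone control (log2 fold change -0.64 ± 0.16, adjusted p = 0.00506 in edgeR's quasi-likelihood test) and lower again in co-cultured than in lone TS-KO (-0.88 ± 0.16, adjusted p = 0.00573). MT-RNR2, the large-subunit ribosomal RNA, was at 8930.0, 9596 and 8129.7 CPM in lone TS-KO and 3820.1, 3111 and 6193 in co-cultured TS-KO, at -1.02 ± 0.22 (adjusted p = 0.0141). It was at 9204, 7414 and 7707 CPM in lone control, and lone TS-KO against lone control gave 0.13 (adjusted p = 0.63), which did not pass. How ribosomal RNA was handled in library preparation is not given in the sources used here.

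The ratio of MT-ND3 to MT-ND4 counts, both complex I messengers, was 0.259 to 0.353 in lone control, 0.218 to 0.569 in co-cultured control, 0.0948 to 0.153 in lone TS-KO and 0.121 to 0.199 in co-cultured TS-KO. The 6 TS-KO libraries lay below the 6 control libraries.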
